A study of Drosophila melanogaster with 12 samples.

Results

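Long noncoding RNA genes recovered with tagged ribosomes of female Drosophila oenocytes were described over 4 groups of flies. Loci were selected on their annotation and on their measured FPKM. A locus of the deposited table was taken when its transcripts carried only noncoding RefSeq identifiers, when its symbol began with lncRNA: or asRNA: (the annotation's prefix for an antisense RNA), and when its FPKM (fragments per kilobase of transcript, scaled to the mapped fragments of the library) was at least 5 in at least 1 group. The 2 roX RNAs were left out. This gave 171 loci of the 16191 in the table, 92 with the prefix lncRNA and 79 with the prefix asRNA. Because the loci were chosen by their FPKM, their levels and differences are given as a description, with no test.

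All flies carried the oenocyte driver PromE-Gal4, built from an enhancer of desat1, and a UAS transgene for the ribosomal protein RpL13A with a FLAG tag, so all groups, controls included, shared the tagged ribosome. H2O-Young flies were mated females labelled 14 days after eclosion on food wetted with water, and PQ-Young flies were of the same age on food with 10 mM paraquat, a herbicide that makes cells produce superoxide, for 24 h. H2O-Aged and PQ-Aged flies had the same treatments at a labelled age of 28 days. The study's methods give somewhat different ages, so the groups are called young and aged. Where a locus is given with 4 values, they are in the order of H2O-Young first, PQ-Young next, then H2O-Aged and last PQ-Aged. Each group had 3 libraries, 12 in all, each made from many pooled females by anti-FLAG pull-down from whole-fly lysate and poly(A) selection. The deposited table holds 1 FPKM for each locus and group, with the 3 libraries pooled, so no spread between libraries could be given, no difference could be set against replicate error, and library depth is not known.

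Long noncoding RNAs are transcripts made much like mRNAs, often capped, spliced and given a poly(A) tail, that hold no long reading frame. Some work in the nucleus as scaffolds, some are the precursors of microRNAs, and antisense RNAs are transcribed from the strand opposite a coding gene. Oenocytes are the hydrocarbon-producing cells under the cuticle that also carry out liver-like lipid metabolism. No library of unselected RNA from these flies was used here, so a high FPKM says that an RNA was present in the pull-down and not that it was translated or enriched on ribosomes. Fewer oenocytes and less RNA per oenocyte cannot be told apart either.

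Oenocyte markers were present in all groups. Fad2, a desaturase of the hydrocarbon pathway, stood at 15747 FPKM in young flies on water and 8545 on paraquat, and at 2125 in aged flies on water and 1531 on paraquat, and the summed FPKM of the 10 measured oenocyte markers went from 41055 in young flies on water to 22979 on paraquat, and from 6424 to 5336 in aged flies. Cyp4g1, a defining marker, was marked by Cuffdiff as holding too many fragments and is listed at 0. Markers of other tissues were also present. The 11 eggshell genes summed to 16809, 3698, 2117 and 2235 FPKM in that order of groups, the 8 midgut genes to 11026, 5971, 2710 and 3285, and the 9 fat body genes to 21641, 7929, 2251 and 1163. Yolk protein genes held most of the fat body sum, with Yp2 at 14515 and Yp1 at 6020 FPKM in H2O-Young. All 11 eggshell genes and all 8 midgut genes were at least 2-fold lower in H2O-Aged than in H2O-Young, as were 7 of 10 oenocyte and 5 of 7 fat body genes with the FPKM minimum. Under the 3 other scalings the midgut count was 4 to 8 and the eggshell count 10 or 11. Of the germline genes, 5 of 11 were at least 2-fold higher and none lower. The 9 neuron genes summed to between 45.3 and 50.5 FPKM, the 8 hemocyte genes to between 37.7 and 70.1, the 9 muscle genes to between 247 and 312, and the 8 male reproductive genes to between 2.34 and 6.54. The neuron sum covers opposite shifts, as Csp went from 15.2 to 27.7 FPKM with age in water. The median difference of the 4 neuron genes with the minimum was -0.85 there. In the hemocyte sum, crq alone stood at 29.0 to 50.3 FPKM. The 9 photoreceptor genes summed to 620, 1235, 488 and 370 FPKM, with 3 of 9 at least 2-fold higher with paraquat in young flies. With age, 4 of 9 were lower in water and 6 of 9 in paraquat, and 1 was lower with paraquat in aged flies. In a plot of the study, 1 H2O-Young library stood apart from the others of its group, and with pooled values it could not be left out. The part of these shifts and of that library in the results below was not tested.

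Of the 2251 lncRNA and asRNA loci in the table, 615 were listed at 0 in all 4 groups and 1465 were above 0 but under the minimum. Just inside the minimum were asRNA:CR43460, with a highest group FPKM of 5.00, lncRNA:CR45526, also at 5.00, and asRNA:CR43629 at 5.05. Just outside it were lncRNA:CR43837 at 4.88, asRNA:CR45384 at 4.81 and lncRNA:CR45746 at 4.79. The loci that passed were mostly at low levels. Their median highest FPKM was 11.8, against 33.8 for the 7389 protein-coding loci with the same minimum, and 102 reached 10 FPKM, 52 reached 20, 18 reached 100 and 8 reached 1000. The transcripts were short, with a median of 603 bases and a range from 201 to 21216 bases, and 85 had 1 exon, 63 had 2 and 23 had 3 or more. They lay on chromosomes 3L (43), 3R (40), 2L (31), X (30), 2R (23) and 4 (4). By the BDGP6 annotation, 94 overlapped an exon of a coding gene on the opposite strand. Another 32 overlapped the span of a coding gene but no exon on the opposite strand, and 45 overlapped no coding gene. Exon overlap on the same strand was not examined. All 79 asRNA loci and 15 lncRNA loci were in the first class.

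A few loci carried most of the signal. The 171 loci summed to 34024 FPKM in young flies on water and 23517 on paraquat, and to 16131 in aged flies on water and 27913 on paraquat. This was 2.01%, 1.88%, 2.09% and 3.63% of the summed FPKM of all loci, which was itself 1692800, 1251740, 770190 and 768652. The 4 highest noncoding loci of each group, not the same 4 throughout, held between 67.6% and 81.4% of the noncoding sum. In PQ-Aged, lncRNA:CR40469 alone stood at 14176 FPKM. The highest FPKM of 169 loci without a failed value was that of H2O-Young for 76 (45.0%), of PQ-Young for 28 (16.6%), of H2O-Aged for 25 (14.8%) and of PQ-Aged for 40 (23.7%). Over all 7712 loci with the minimum these shares were 40.5%, 12.2%, 28.2% and 19.0%.

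The 2 most abundant loci had opposite orders of groups. lncRNA:CR40469, a single-exon RNA of 214 bases on chromosome X (122493 to 122706, plus strand) that overlaps no coding gene, stood at 2743 FPKM in young flies on water and 2246 on paraquat, and at 5620 in aged flies on water and 14176 on paraquat. It had the highest FPKM of all loci in PQ-Aged (rank 1), rank 2 in H2O-Aged, and ranks 138 and 124 in H2O-Young and PQ-Young. It was among the 17 loci with a transcript under 300 bases, and the part of transcript length in its FPKM was not tested. lncRNA:CR43196, with 2 exons and 543 bases on chromosome 3R (17382129 to 17382767, minus strand), overlapped the spans of Brf on the same strand and lute on the opposite strand. It stood at 13580, 8688, 787 and 486 FPKM. Its rank went from 10 in H2O-Young and 7 in PQ-Young to 177 in H2O-Aged and 290 in PQ-Aged. Both young groups were thus above both aged groups for lncRNA:CR43196, and both aged groups above both young groups for lncRNA:CR40469.

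lncRNA:CR34335 (chromosome X, 3545750 to 3546110, overlapping the span of DIP-alpha on the same strand) was also higher in both aged groups, with 1599, 1928, 3731 and 5005 FPKM. lncRNA:mimi, a single-exon RNA of 1563 bases on chromosome 3R whose locus also holds mir-9381, stood at 454 FPKM in young flies on water and 1125 on paraquat, and at 1267 in aged flies on water and 2532 on paraquat, so it was higher with paraquat at both ages and higher with age on both foods. The reads of lncRNA:mimi and mir-9381 cannot be split in a locus value. lncRNA:CR44688 (chromosome 3L, no coding gene overlap) had the order of lncRNA:CR43196, with 1221, 915, 388 and 375 FPKM, and its age difference in water was -1.65 (log2), or -0.55 after quantile normalization.

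A pair of adjoining loci on chromosome 3L went in opposite directions. lncRNA:CR45401, on the minus strand from 125009 to 125420, stood at 707 FPKM in young flies on water and 515 on paraquat, and at 104 in aged flies on water and 124 on paraquat. lncRNA:CR45402 begins at the next base, 125421, on the plus strand and ends at 125833. It stood at 3.42, 3.06, 18.0 and 18.2 FPKM. The young groups were above the aged groups at the first and below them at the second.

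**Figure D1:**
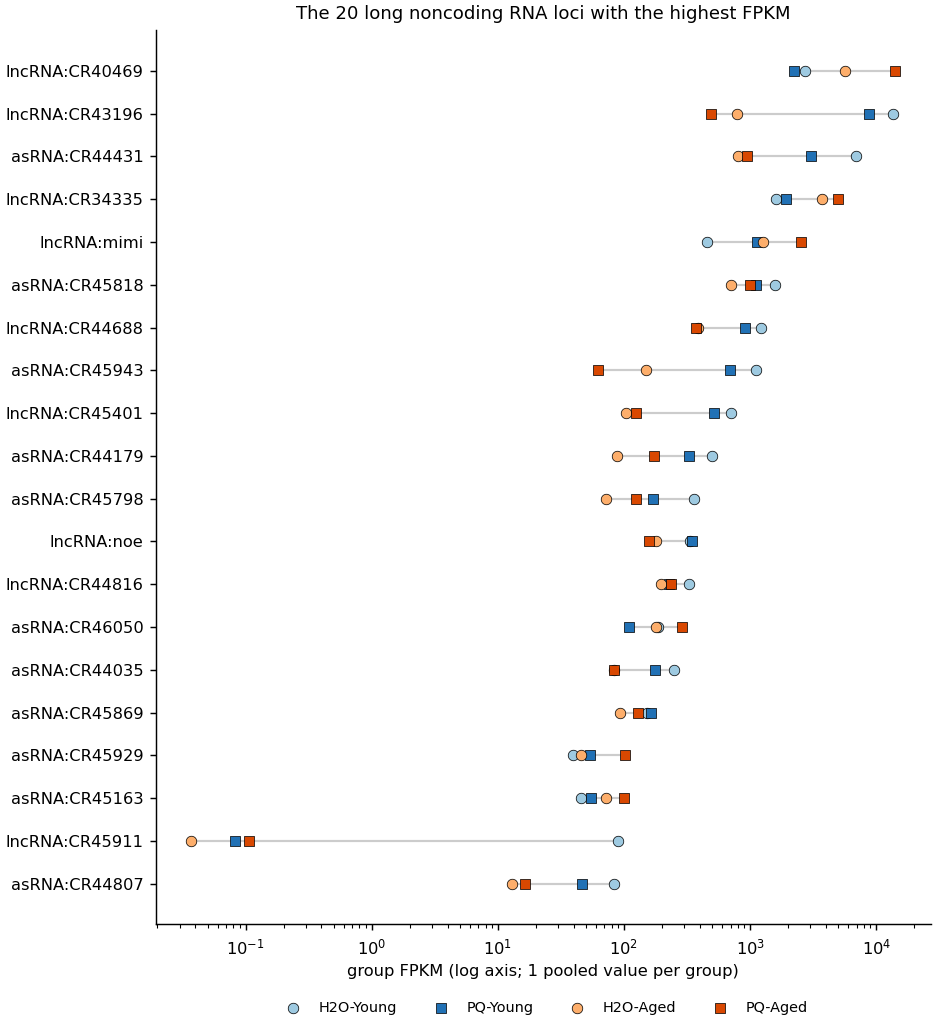
Group FPKM (log axis) of the 20 long noncoding RNA loci with the highest values, 1 row per locus, with circles for water and squares for paraquat, blue for young and orange for aged, and a grey line from the lowest to the highest group. lncRNA:CR40469 runs from 2246 to 14176 FPKM with the aged groups on the right, lncRNA:CR43196 from 486 to 13580 FPKM with the young groups on the right, and lncRNA:CR45911 has 1 group at 90.1 FPKM and the others at or under 0.107 FPKM. The locus value of lncRNA:CR45911 also holds mir-13b-1.

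The comparison of H2O-Aged with H2O-Young asked how age changed these RNAs on control food. A locus is counted as higher or lower when log2(FPKM + 1) differed by at least 1, that is 2-fold. With age, 24 of 169 loci were higher, beside 11.7% of all loci with the minimum, and 63 were lower, beside 20.9% of all loci. In shares, 14.2% were higher and 37.3% lower, and the median difference was -0.54 on the log2 scale against -0.04 over all loci. Lower values were more frequent among asRNA loci, with 35 of 78 lower and 4 higher, than among lncRNA loci, with 28 of 91 lower and 20 higher. Short coding genes at similar levels had nearly the same skew. Of 254 coding loci with a transcript under 1000 bases and a highest FPKM from 5 to 20, 36.2% were lower and 13.0% higher (median -0.67), and of the 84 noncoding loci in the same range of length and level, 41.7% were lower and 13.1% higher (median -0.67). Among coding loci of any length at 5 to 20 FPKM, 12.4% were lower and 17.9% higher. Abundant coding loci were lower about as often as abundant noncoding ones. At a highest FPKM of 100 or more, 44.5% of 1741 coding loci were lower and 3.73% higher (median -0.85). Of the 18 noncoding loci at that level, 9 (50.0%) were lower and 3 (16.7%) higher (median -1.03). Of the noncoding loci, 41.2% of those under 300 bases were lower and 23.5% higher, 37.7% and 12.3% of those from 300 to under 1000 bases, and 34.8% and 15.2% of those of 1000 bases or more (median -0.51). Gapdh1, a glycolytic gene, had an FPKM of 846 and 907 in young flies and 654 and 447 in aged flies (water, then paraquat). After rescaling all values to Gapdh1, 46 noncoding loci (27.2%) were lower and 31 (18.3%) higher, beside 13.6% and 22.3% of all loci. The median was then -0.21 against 0.30 over all loci.

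The loci with the largest positive log2 differences in the aged flies were mostly at low levels. lncRNA:CR44985, antisense to Ncoa6, was listed at 0 in H2O-Young and stood at 17.6 FPKM in H2O-Aged, a difference of 4.22 on the log2(FPKM + 1) scale. lncRNA:CR44060, antisense to drongo, was at 0.0512 and 14.2 FPKM, a difference of 3.85. lncRNA:CR45119, which overlaps CG43693 by 33 bases, was at 4.43 and 47.6 FPKM (3.16). lncRNA:CR45380 was listed at 0 and stood at 7.54 FPKM (3.09), and lncRNA:let7C was at 0.368 and 9.09 FPKM (2.88). lncRNA:CR45627 was listed at 0 and stood at 5.90 FPKM (2.79). The highest FPKM among loci that were higher with age belonged to lncRNA:CR40469 (log2 difference 1.03), lncRNA:CR34335 (1.22) and lncRNA:mimi (1.48).

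The largest negative difference was that of lncRNA:CR45911, the host of mir-13a, mir-13b-1 and mir-2c, with 90.1 FPKM in young and 0.0371 in aged flies (log2 difference -6.46). It stood at 0.0826 FPKM in PQ-Young and 0.107 in PQ-Aged, so a single group was high, and 1 library cannot be told apart from all 3 in that pooled value. The locus is listed together with mir-13b-1, and reads of the host and of the microRNA entry cannot be split in its value. lncRNA:CR43196 was lower by 17.3-fold (log2 difference -4.11). asRNA:CR45208, antisense to RASSF8, stood at 8.42 FPKM in H2O-Young and was listed at 0 in H2O-Aged (-3.24), asRNA:CR45341, antisense to CG17292, at 9.55 and 0.227 FPKM (-3.10), and asRNA:CR46262, antisense to CG3625, at 15.4 and 0.977 FPKM (-3.05). asRNA:CR44431, antisense to Mgstl, differed by -3.10.

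The same age comparison in paraquat-fed flies, PQ-Aged with PQ-Young, shares no library with the one in water. Of 170 loci, 24 were at least 2-fold higher, beside 4.8% of all loci, and 32 were lower, beside 11.6% of all loci, with a median difference of -0.18 against -0.09 over all loci. Rescaling to Gapdh1 turned this balance to 69 higher and 6 lower (40.6% and 3.53%, median 0.70), together with that of all loci (41.8% and 2.28%, median 0.87). Higher in both age comparisons were 13 loci, 54.2% of the 24 higher in water and 54.2% of the 24 higher with paraquat, namely lncRNA:CR40469, lncRNA:CR34335, lncRNA:mimi, lncRNA:Hsromega, lncRNA:CR44060, lncRNA:CR45119, lncRNA:CR45402, lncRNA:CR43604, asRNA:CR45802, lncRNA:let7C, lncRNA:CR43887, lncRNA:CR44526 and lncRNA:CR44953. Over all loci, 232 were higher in both, 25.6% of the 906 higher in water and 62.7% of the 370 higher with paraquat. Lower in both were 18 noncoding loci, 28.6% of 63 and 56.2% of 32, among them lncRNA:CR43196, asRNA:CR44431, lncRNA:CR44688, asRNA:CR45943, lncRNA:CR45401, asRNA:CR46262, asRNA:CR43875 and asRNA:CR45341. The count over all loci was 691, 42.8% of 1614 and 77.6% of 891. Opposite directions were seen at 5 loci, with lncRNA:CR44986 higher with age in water and lower with paraquat, and lncRNA:CR44209, asRNA:CR45895, lncRNA:CR44991 and asRNA:CR46070 the other way round. Over all loci 14 were higher in water and lower with paraquat, and 22 the other way round.

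Within the age comparison in paraquat, lncRNA:CR44060 had the largest positive difference (4.62 FPKM in PQ-Young and 62.4 in PQ-Aged, log2 difference 3.50), followed by lncRNA:CR40469 (2.66). lncRNA:CR45402 differed by 2.24, lncRNA:CR45119 by 2.11 and asRNA:CR45175, antisense to CG5567, by 2.01 (9.09 and 39.6 FPKM). asRNA:CR45802, antisense to zormin, differed by 1.96 (1.25 and 7.78 FPKM). lncRNA:CR43196 had the largest negative difference (-4.16), then asRNA:CR45943 (-3.46), asRNA:CR43875, antisense to alphaSnap (15.4 and 2.21 FPKM, -2.35), lncRNA:CR45401 (-2.04), asRNA:CR46262 (3.14 and 0.166 FPKM, -1.83) and lncRNA:CR44986, antisense to Gpdh1, which encodes a glycerol-3-phosphate dehydrogenase (6.63 and 1.15 FPKM, -1.82).

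The comparison of PQ-Young with H2O-Young asked how paraquat changed these RNAs in young flies. Of 170 loci, 12 were at least 2-fold higher, beside 1.5% of all loci, and 23 were lower, beside 6.51% of all loci, with a median difference of -0.15 against -0.01. Of the 12 higher loci 11 had the prefix lncRNA. All 11 eggshell marker genes were at least 2-fold lower in the same comparison, and their part in these counts was not tested. Among the 85 noncoding loci with a transcript under 1000 bases and a highest FPKM from 5 to 20, 8.24% were higher and 18.8% lower, beside 1.57% and 23.6% of the coding loci in that range. The coding loci thus had the greater share of lower values and the noncoding loci the greater share of higher ones.

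lncRNA:CR44985 was listed at 0 in H2O-Young and stood at 5.67 FPKM in PQ-Young (log2 difference 2.74). lncRNA:CR44060 stood at 4.62 FPKM against 0.0512 (2.42), lncRNA:CR45627 at 4.02 against a listed 0 (2.33), lncRNA:let7C at 3.75 against 0.368 (1.80), and lncRNA:CR45380 at 1.95 against a listed 0 (1.56). Of the 6 largest positive differences that of lncRNA:mimi alone was at a high level, at 1125 FPKM against 454 (1.31). The largest negative difference was again at lncRNA:CR45911 (-6.39). Below it were lncRNA:CR44991, antisense to emb, with 7.25 FPKM in H2O-Young and 0.701 in PQ-Young (-2.28), asRNA:CR46262 with 15.4 and 3.14 (-1.99), lncRNA:CR43763 with 7.02 and 1.04 (-1.98), lncRNA:CR33942 with 6.24 and 1.00 (-1.85) and lncRNA:CR45745 with 12.7 and 3.30 (-1.67). Both this comparison and the age comparison in water rest on the H2O-Young value, and the 6 loci of this list with the largest negative differences were all highest in that group. Ranking loci by their fall from H2O-Young favours that outcome, so it is no separate finding. Some of them, such as lncRNA:CR44991, reached the FPKM minimum in H2O-Young only.

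Paraquat in aged flies, PQ-Aged against H2O-Aged, gave the reverse balance. Of 170 loci, 22 were at least 2-fold higher, beside 1.34% of all loci, and 10 were lower, beside 1.52% of all loci, and the median difference was 0.16 against -0.08. Rescaled to Gapdh1 the counts were 55 and 6 (32.4% and 3.53%), beside 7.22% and 0.856% of all loci, with a median of 0.62 against 0.44. The asRNA loci held most of the higher values, with 16 of 79 higher (20.3%) and 5 lower, while 6 of 91 lncRNA loci were higher and 5 lower. In the range of transcripts under 1000 bases and 5 to 20 FPKM, 11.9% of the noncoding loci were higher and 8.33% lower, beside 6.69% and 4.33% of the coding loci, so both directions were more frequent in short transcripts than over all loci. Among the 34 noncoding loci with a highest FPKM from 20 to 100, 4 were higher and 1 lower. Of 3156 coding loci of any length at that level, 0.158% were higher and 0.634% lower, so transcript length was not matched there.

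lncRNA:CR44060 again had the largest positive difference (14.2 FPKM in H2O-Aged and 62.4 in PQ-Aged, log2 difference 2.06). asRNA:CR45214, antisense to the kinase gene RIOK2, stood at 1.5 and 9.22 FPKM (2.03), asRNA:CR46070, antisense to CG6785, at 0.60 and 5.44 (2.01), asRNA:CR45208 at a listed 0 and 2.65 (1.87), asRNA:CR45865, antisense to CG4101, at 5.94 and 23.0 (1.79), and asRNA:CR46055, antisense to the cell cycle factor gene E2f1, at 1.01 and 5.42 (1.68). Of the abundant loci, lncRNA:CR40469 differed by 1.34, a 2.52-fold higher FPKM (0.49 after quantile normalization), and lncRNA:mimi by 0.998, just under the 2-fold limit. Lower with paraquat were lncRNA:CR44986 (11.5 and 1.15 FPKM, -2.54), asRNA:CR46195, antisense to Trf4-1 (15.1 and 3.92, -1.71), asRNA:CR45000, antisense to Lcch3 (22.8 and 6.63, -1.64), lncRNA:CR45985 (7.93 and 1.90, -1.62), asRNA:CR45149, antisense to Arms (9.90 and 3.01, -1.44) and asRNA:CR43430, antisense to hts (8.45 and 2.51, -1.43).

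The 2 paraquat comparisons share no library. Higher in both were 3 loci, lncRNA:CR44060, asRNA:CR45865 and lncRNA:CR43604, which is 25.0% of the 12 higher in young flies and 14.3% of the 21 higher in aged flies that could be compared at both ages. Lower in both was asRNA:CR45000. Higher in young and lower in aged flies were lncRNA:CR44985 and lncRNA:CR45627, and lower in young and higher in aged flies were asRNA:CR45895 and lncRNA:CR44991. Over all loci, 16 of the 116 higher in young flies (13.8%) were also higher in aged flies, 27 were lower at both ages, 16 were higher in young and lower in aged flies, and 19 were lower in young and higher in aged flies.

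**Figure D2:**
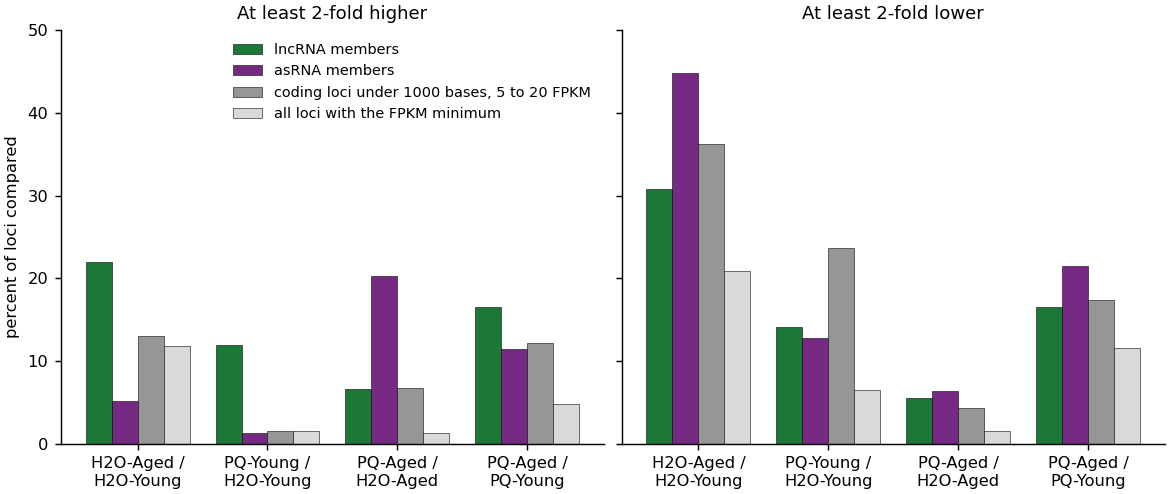
Percent of loci at least 2-fold higher (left) and lower (right) in log2(FPKM + 1) in each of the 4 comparisons, for lncRNA members, asRNA members, coding loci with a transcript under 1000 bases and a highest FPKM from 5 to 20, and all loci with the FPKM minimum. asRNA loci were lower in 44.9% with age in water and higher in 20.3% with paraquat in aged flies, beside 36.2% and 6.69% of the short coding loci.

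Each of the 94 loci that overlap an exon of a coding gene on the opposite strand was set beside that gene, and 93 pairs had no failed value. The median share of the antisense transcript that lay over exons of its partner was 72.2%, and 9 were covered over their whole length. The library kit keeps strand, but the strand setting used in counting is not given in the sources used here, so reads of the antisense RNA and of its partner cannot be told apart. The antisense RNA was below its partner in all 4 groups in 51 pairs and above it in all 4 groups in 17.

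The most abundant pair was asRNA:CR44431 with Mgstl, which encodes a microsomal glutathione S-transferase. asRNA:CR44431 stood at 6878 FPKM in young flies on water and 3044 on paraquat, and at 803 in aged flies on water and 947 on paraquat, and Mgstl at 30828, 15690, 2685 and 1988 FPKM. The antisense value was 22.3%, 19.4%, 29.9% and 47.6% of that of Mgstl, and both were far lower in the aged groups. asRNA:CR45943 lay wholly over CG13255 and was the higher of the pair, with 1105, 691, 148 and 62.1 FPKM against 337, 191, 45.8 and 58.4 FPKM. asRNA:CR44179 stood at 503, 329, 88.3 and 172 FPKM and its partner CG5112 at 579, 349, 179 and 35.3 FPKM, so with paraquat in aged flies the antisense RNA was higher and the coding gene lower. asRNA:CR45818 was far above its partner. It stood at 1581, 1116, 712 and 997 FPKM, while the locus of Cdc37, which encodes a cochaperone of Hsp90, stood at 70.0, 79.9, 66.9 and 57.7 FPKM. The age difference of asRNA:CR45818 in water was -1.15, and 0.12 after quantile normalization.

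Across the 93 pairs the age differences in water of the antisense RNA and of its partner were related with r = 0.33 (Pearson) and rho = 0.37 (Spearman), with the same sign in 61 pairs. Both were at least 2-fold lower in 13 pairs, both higher in 1, and opposite in 3. In the 34 pairs with an antisense FPKM of 20 or more, r was 0.52 and rho 0.55. For paraquat in aged flies r was -0.10 and rho -0.09, with the same sign in 38 pairs. In the same 34 pairs, r was -0.22 and rho -0.28 there, with the same sign in 9. Across the 93 pairs, 17 antisense RNAs and no partner were at least 2-fold higher with paraquat in aged flies, beside 0.49% of 7380 coding loci. Lower there were 7 antisense RNAs and 2 partners, beside 0.745% of the coding loci. Of the coding loci with a transcript under 1000 bases and a highest FPKM from 5 to 20, 6.69% were higher and 4.33% lower. Some of the higher antisense RNAs, such as asRNA:CR45214 and asRNA:CR46070, reached the FPKM minimum in PQ-Aged only. The median of the antisense minus the partner difference was 0.44 for paraquat in aged flies and -0.34 for age in water. For paraquat in young flies r was 0.02 (48 pairs of the same sign), and for age in paraquat-fed flies r was 0.20 (50 pairs). In the 34 pairs these were 0.07 and 0.29. These correlations run over pairs of 1 table that share libraries, possibly reads, and group values. For 124 loci set beside their nearest coding gene, r lay between -0.08 and 0.06 in the 4 comparisons.

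**Figure D3:**
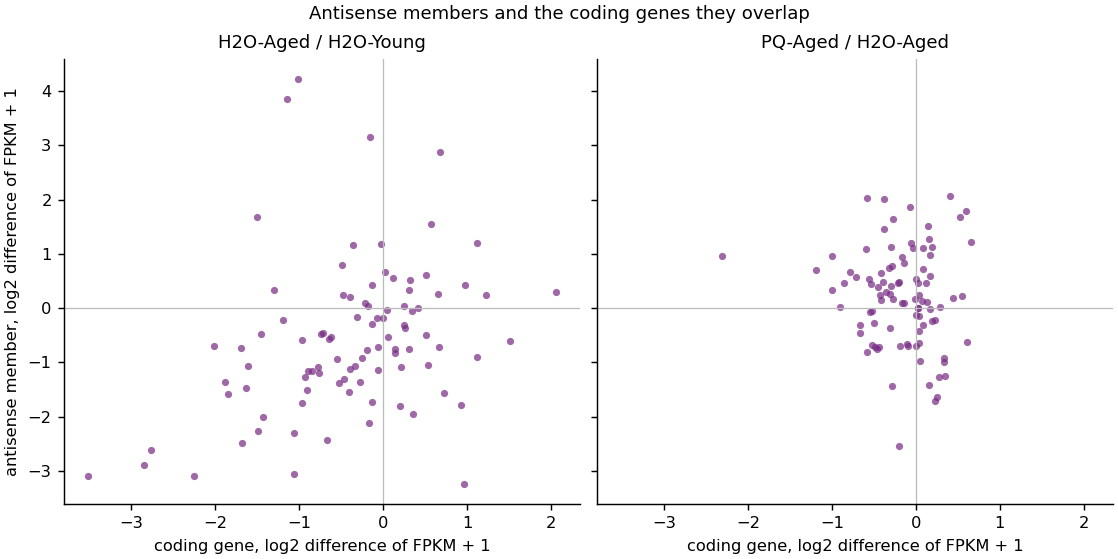
Difference in log2(FPKM + 1) of each antisense member (vertical axis) against that of the coding gene it overlaps (horizontal axis), 1 point per pair, 93 pairs, for age in water (left) and paraquat in aged flies (right). The points slope upward on the left (r = 0.33) and show little slope on the right (r = -0.10). On the right, antisense RNAs reach 1 or more in 17 pairs and no coding partner does, beside 0.49% of 7380 coding loci. At least 2-fold lower there are 7 antisense RNAs and 2 partners. Of coding loci with a transcript under 1000 bases and a highest FPKM from 5 to 20, 6.69% were higher.

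The loci with a given name included some well known noncoding RNAs of the fly. lncRNA:Hsromega, a heat-inducible nuclear RNA that scaffolds the omega speckles of hnRNP proteins, stood at 23.6 FPKM in young flies on water and 37.2 on paraquat, and at 80.5 in aged flies on water and 82.2 on paraquat. It was 3.41-fold higher with age in water and 2.21-fold higher with age in paraquat-fed flies, and the 2 aged groups differed by 1.02-fold. Its transcript of 21216 bases was the longest of the set. lncRNA:noe stood at 336, 343, 178 and 158 FPKM, lower by a little under 2-fold with age in water (log2 difference -0.91) and by 2.17-fold with age in paraquat. lncRNA:sphinx, a young chimeric noncoding gene on chromosome 4 that has been linked to male courtship, stood at 10.6, 8.24, 5.85 and 5.21 FPKM.

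Precursors of microRNAs did not share a direction. In 7 loci a microRNA lay in an exon on the same strand, and 5 of these loci are listed together with the microRNA. lncRNA:let7C, the ecdysone-inducible primary transcript of mir-100, let-7 and mir-125, stood at 0.368 FPKM in young flies on water and 3.75 on paraquat, and at 9.09 in aged flies on water and 13.6 on paraquat, with H2O-Young below all other groups. Its coding neighbour on the opposite strand, CG10283, stood at 1.66 FPKM or less. lncRNA:CR31044, the host of mir-279 and mir-996, was instead highest in H2O-Young, with 14.4, 8.62, 3.71 and 6.13 FPKM. lncRNA:CR43650, the host of mir-8, stood at 10.7, 6.61, 2.95 and 4.49 FPKM, and lncRNA:CR43857, the host of mir-275, at 7.85, 7.48, 5.38 and 4.93 FPKM. Mature microRNAs were not analysed here.

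**Figure D4:**
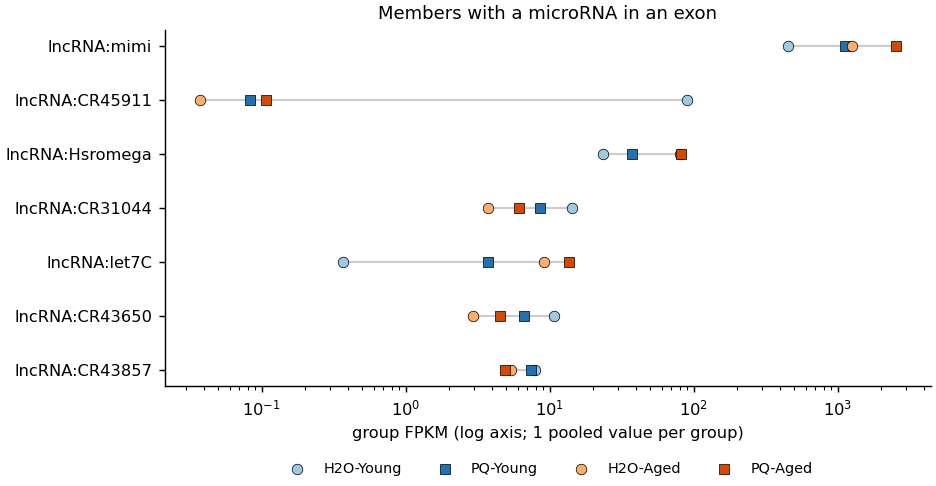
Group FPKM (log axis) of the 7 loci with a microRNA in an exon, 1 row per locus, with circles for water and squares for paraquat, blue for young and orange for aged. lncRNA:mimi, lncRNA:Hsromega and lncRNA:let7C have their lowest value in H2O-Young, and lncRNA:CR45911, lncRNA:CR31044, lncRNA:CR43650 and lncRNA:CR43857 their highest.

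Genes of the heat response and of noncoding RNA processes were read from lists of coding genes. Whether they act on the loci described was not tested. Of the heat shock protein genes, which share the heat response of Hsromega, 8 of 10 with the FPKM minimum were at least 2-fold higher with age in water and none lower, 4 were higher with paraquat in young flies, none with paraquat in aged flies, and 7 with age in paraquat. Over the 3 other scalings, 8 to 10 were higher with age in water, 4 with paraquat in young flies, none to 3 with paraquat in aged flies and 7 to 10 with age in paraquat, and none was lower in any comparison. Hsp26, a small heat shock protein gene, stood at 600, 1406, 5573 and 4341 FPKM, Hsp23 at 138, 472, 3803 and 4809 FPKM, and Hsp83, which encodes the fly Hsp90, at 405, 545, 670 and 573 FPKM. Of 10 omega speckle protein genes, none was higher in any comparison and only nonA was lower, with age in water (158 and 61.9 FPKM), while under the 3 other scalings up to 3 of the 10 were higher. Hrb87F, the hnRNP protein gene most tied to omega speckles, stood at 130, 140, 142 and 157 FPKM.

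Of 7 genes of microRNA biogenesis, Ranbp21 was higher with age in water (4.64 and 11.8 FPKM), and none of the 7 passed 2-fold in the other 3 comparisons, except 4 that were higher with age in paraquat after Gapdh1 scaling. drosha, which encodes the nuclease that cuts primary microRNA transcripts, stood at 8.28, 9.51, 13.2 and 13.6 FPKM. Among 13 genes of nonsense-mediated decay and the exosome, the machineries that degrade many noncoding RNAs, Mtr4 was higher with age in water and 4 were lower, namely Rrp40, Rrp41, Mtr3 and Dis3, whose locus also holds another gene. With paraquat in young flies and with age in paraquat only Dis3 passed 2-fold, being lower, and with paraquat in aged flies none did. After quantile normalization none passed with paraquat in young flies, and after Gapdh1 scaling 2 were lower. Upf1, the central helicase of nonsense-mediated decay, stood at 3.95, 6.0, 6.55 and 5.41 FPKM. Of 7 measured genes of small nucleolar RNA particles, none passed 2-fold in the first 3 comparisons and Nop60B, whose locus holds other genes, was lower with age in paraquat. Under the 3 other scalings none of the 7 was lower there, and with Gapdh1 scaling 3 of them and 3 of the decay genes were higher.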

How the data were processed

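RNA bound to FLAG-tagged ribosomes was sequenced as single-end reads in 12 libraries, 3 per group. By the submitters' processing notes, reads were aligned with TopHat2 to dm6 and quantified with Cufflinks and Cuffdiff. The deposited FPKM values were made by the authors with Cuffdiff, 1 per locus and group, with the 3 libraries pooled, so no SD, interval or test across libraries exists here and library depth is not known. The table also holds the authors' fold changes, test statistics, p-values and q-values, which were not used. Only the mark for too many fragments was used, to leave out failed values (87 loci in at least 1 group pair, 2 of the loci described).

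RefSeq identifiers were mapped to symbols with a RefSeq gene table, and positions, exons and lengths came from the Ensembl annotation of BDGP6, which is the dm6 assembly. All 171 loci were found there, and the annotated span of 170 lay inside the deposited locus. Differences were taken on log2(FPKM + 1), so they understate changes at low levels. No test was run. A difference of at least 1 was counted, beside all 7724 loci that reached 5 FPKM in 1 group or more. Genes were named by a rule, namely loci with a given name, the 10 highest in FPKM, the 6 largest positive and 6 largest negative differences in each comparison, the coding genes they overlap, and up to 4 genes of each list (heat shock, omega speckle, microRNA biogenesis, decay, small nucleolar particles, dosage compensation, tissue markers). Other loci named from a count, an overlap or the edge of the FPKM minimum were chosen after their values were seen. The loci and lists were chosen with earlier results of these data known. Alternatives were 3 other scalings, a pseudocount of 0.1, an FPKM minimum of 1, and loci with 1 symbol. The scripts were tested on simulated data (Python 3.11.15, pandas 2.3.3, numpy 2.4.6).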

Additional observations from a re-analysis of the deposited data

How the results depend on the processing

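Scaling to Gapdh1 had the strongest effect. It moved the median of all loci from -0.04 to 0.30 (log2) for age in water, from -0.08 to 0.44 for paraquat in aged flies and from -0.09 to 0.87 for age in paraquat, and the median of the noncoding loci to -0.21, 0.62 and 0.70. The counts of higher and lower loci became 55 and 6 for paraquat in aged flies, or 32.4% and 3.53%, beside 7.22% and 0.856% of all loci. For age in paraquat they became 69 and 6, or 40.6% and 3.53%, beside 41.8% and 2.28% of all loci. Median ratio scaling and quantile normalization kept every count within 1.5 times and every median of the noncoding loci within 0.1. A pseudocount of 0.1 gave 18 lower loci in place of 10 for paraquat in aged flies, or 10.6%, beside 2.05% of all loci. With an FPKM minimum of 1, up to 454 loci entered, so counts were larger. For age in water 56 (12.4%) were higher and 120 (26.7%) lower (median -0.34), beside 10.7% and 19.3% of all loci. For paraquat in young flies the counts were 27 (5.95%) and 61 (13.4%), beside 1.73% and 6.62% of all loci. For paraquat in aged flies they were 43 (9.53%) and 19 (4.21%), beside 1.48% and 1.53%. For age in paraquat 64 (14.2%) were higher and 46 (10.2%) lower (median 0.00), beside 4.74% and 10.1%. The balance there turned from 24 higher and 32 lower. Of 656 values of named loci under 3 scalings and the other pseudocount, 611 stayed on the same side of the 2-fold limit, 19 dropped under it and 25 passed it. A change of sign between values that were both under the limit was not counted. The age difference of asRNA:CR45818 in water turned to 0.12 under quantile normalization. The cause was not tested.

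No paired analysis was possible because the deposited values pool the 3 libraries of a group, and for the same reason leaving out a replicate was not run. Counting error is largest for short loci at a few FPKM, and the depth behind them is unknown.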

Other observations

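The roX RNAs, which guide the dosage compensation complex to the male X chromosome, were outside the set. roX1 stood at 1.87 FPKM in young flies on water and 2.33 on paraquat, and at 25.5 in aged flies on water and 24.6 on paraquat, and roX2 at 0.307 FPKM or less. All libraries were labelled female. Among the genes of the dosage compensation complex list, roX RNAs included, 3 of 6 with the FPKM minimum were at least 2-fold higher with age in water, namely roX1, msl-3 (8.73 and 21.8 FPKM) and msl-2, whose locus holds another gene (1.42 and 32.7 FPKM). With paraquat in young flies only msl-2 was higher, with age in paraquat roX1 and msl-2 were, and none passed 2-fold with paraquat in aged flies. Under the 3 other scalings 3 to 6 of the 6 were higher with age in water and 2 to 6 with age in paraquat. The 8 male reproductive genes summed to between 2.34 and 6.54 FPKM.

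A further 107 coding loci also hold a lncRNA or asRNA symbol, so the noncoding RNA has no value of its own. FarO, a fatty acyl-CoA reductase gene of oenocytes, is merged with asRNA:CR43637 at 3044 and 1034 FPKM in young flies and 380 and 271 FPKM in aged flies (water, then paraquat). RpL22 is merged with lncRNA:CR42491 at 998, 1422, 1307 and 1061 FPKM in the same order, and Cam with lncRNA:CR43900 at 314, 370, 416 and 527 FPKM. Another 91 noncoding loci have no symbol in the tables used here, and 12 of them reached 5 FPKM.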
